A study of Mus musculus with 8 samples.

Results

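The 9 genes described here are linked to the mitochondrial route to cell death. They include the pro-survival genes Bcl2l1 and Mcl1, the effectors Bax and Bak1, and the BH3-only genes Bcl2l11, Bbc3 and Pmaip1. The others are the initiator caspase gene Casp2 and Hax1, which encodes a mitochondrial protein described as anti-apoptotic. All 9 were taken by symbol from a table of 55421 Ensembl genes. All 9 passed the filter on low counts that left 14647 genes for testing. The RNA came from E14 mouse embryonic stem cells of 129/Ola background in which the microRNA cluster miR-290-295 had been deleted, so every group, the control included, lacks that cluster. The cells were transfected with 5 nM of a siPOOL, which combines many small interfering RNAs directed at the same transcript, and collected 36 h later. The groups are named siTfap4, siWiz, siZic2 and siNeg after the targeted gene or, for siNeg, the negative control pool, with 2 libraries each that the series design calls biological duplicates. Whether the knockout cells were 1 clone, and whether the duplicates were separate knockdowns or shared a passage, was not given in the sources used here, and wild-type cells were not analysed here.

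In the mitochondrial route to cell death, BH3-only proteins engage the pro-survival members of the Bcl2 family and help to activate Bax and Bak1, which then permeabilise the outer membrane and let cytochrome c reach Apaf1 and the caspases. The balance between pro-survival proteins and their antagonists sets how close a cell stands to this step, and mouse embryonic stem cells are known to be primed for it. Members of the miR-290 family have been described as protecting mouse embryonic stem cells from apoptosis, with Casp2 among the described targets.

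Depth and the identity of the libraries were as follows. Totals were 8326675 and 8829051 counts in siTfap4, 11200948 and 10544436 counts in siWiz, 13788856 and 9328709 counts in siZic2, and 11395211 and 10795092 counts in siNeg. Tfap4, a helix-loop-helix factor that binds E-boxes, was at 13.9 ± 2.605 CPM (a gene's counts relative to the library total, TMM scaled) in siTfap4 and 35.3 ± 2.598 CPM in siNeg (SD, n = 2 each; edgeR adjusted p = 0.00417). Wiz, a zinc finger partner of H3K9 methyltransferases, was at 18.2 ± 2.06 CPM in siWiz and 48.0 ± 2.65 CPM in siNeg, with an adjusted p of 0.708 by edgeR and 0.00554 by DESeq2. Zic2, a zinc finger transcription factor, had 31 and 17 counts in the siZic2 libraries and 54 and 23 counts in the siNeg libraries, a difference that edgeR did not call (unadjusted p = 0.120). The siTfap4 libraries stood apart, at 103 and 57.7 on a first principal component that held 59.8% of the variance, against -38.9 to -1.85 for the other 6 libraries. All 8 embryonic stem cell markers examined were detected, with a summed level of 2407 to 2583 CPM in siTfap4, 2646 to 2935 CPM in siWiz, 2985 to 3185 CPM in siZic2 and 2796 to 3054 CPM in siNeg. The sum covers shifts in both directions, named here after their values were seen. Nanog, a pluripotency factor, was at 77.6 and 178 CPM in siTfap4 against 399 and 314 CPM in siNeg, and Tdgf1, a Nodal co-receptor, was at 411 and 538 CPM against 750 and 697 CPM. Pou5f1, which encodes Oct4, was at 57.4 and 48.1 CPM in siTfap4 against 24.4 and 27.5 CPM in siNeg. Summed markers of other lineages in siTfap4 against siNeg were 12.3 to 19.2 against 10.5 to 10.7 CPM for 5 trophectoderm genes, 5.63 to 7.94 against 5.77 to 6.15 CPM for 6 primitive endoderm genes, 8.80 to 12.1 against 15.5 to 24.7 CPM for 4 neural genes, 1.86 to 2.70 against 2.59 to 2.91 CPM for 4 mesoderm genes, and 6.80 to 9.55 against 10.1 to 11.7 CPM for 6 fibroblast genes. Of the listed markers, Neurog1 (neural) and Postn (fibroblast) had 0 counts in all 8 libraries. Others on the same lists were detected in every library. Pax6 (neural) was at 5.95 to 25.1 CPM, Sox1 (neural) at 1.91 to 3.74 CPM and Thy1 (fibroblast) at 6.68 to 11.6 CPM. The part of these markers in the results below was not tested.

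The sequences that bear on these genes are of 2 kinds. The first is the microRNAs that all groups lack, shown because several of the 9 genes carry a match to them. Of the arms listed by RefSeq (GRCm38.p6), 3 share the seed AAGUGCU, bases 2 to 8, printed in capitals.
mmu-miR-291a-3p: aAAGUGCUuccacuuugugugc
mmu-miR-294-3p: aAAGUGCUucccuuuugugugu
mmu-miR-295-3p: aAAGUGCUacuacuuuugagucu
The reverse complement of this seed, AGCACTT, was searched in GENCODE M21 (GRCm38) 3' untranslated regions. For each gene the longest coding transcript with such a region was used. Other transcripts, and the seeds of the other arms of the cluster, were not searched. It occurred once in Casp2, once in Mcl1 and 3 times in Bcl2l11, and 0 times in Hax1, Bcl2l1, Bak1, Bax, Bbc3 and Pmaip1. Each match is shown in capitals with the bases on either side.
Casp2: tataacctagaAGCACTTgtctctgctct
Mcl1: tcggacttcagAGCACTTtatgtagttga
Bcl2l11 site 1: atgccgagtaaAGCACTTgtcttccacaa
Bcl2l11 site 2: cctggtggaggAGCACTTtctaacctgtg
Bcl2l11 site 3: tccccgactggAGCACTTtactgtctcag
Such a match is frequent in regions of like length: at least 1 was present in 22.75% of untranslated regions within 20% of the length of that of Casp2, in 26.48% for Mcl1 and in 40.77% for Bcl2l11. A match is only a match of letters, and since no group has the cluster, no comparison below bears on it.

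The second kind is the stretch from 250 bases before to 50 bases after the annotated start of the 3 genes that moved when Tfap4 was targeted, since the Tfap4 protein binds E-boxes. The letters CANNTG and, within them, CAGCTG, the E-box form usually given for Tfap4, were searched in RefSeq promoters (GRCm38.p6; both motifs are palindromes, so 1 strand covers both). Matches are in capitals.
Hax1, outer start, chr3:89998667-89998966, minus strand: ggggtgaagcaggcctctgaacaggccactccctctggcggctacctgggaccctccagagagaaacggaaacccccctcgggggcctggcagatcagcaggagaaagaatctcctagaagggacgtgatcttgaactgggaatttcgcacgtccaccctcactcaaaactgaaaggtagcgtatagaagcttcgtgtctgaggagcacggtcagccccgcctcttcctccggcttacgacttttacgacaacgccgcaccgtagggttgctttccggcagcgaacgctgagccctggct
Hax1, inner start, chr3:89998054-89998353, minus strand: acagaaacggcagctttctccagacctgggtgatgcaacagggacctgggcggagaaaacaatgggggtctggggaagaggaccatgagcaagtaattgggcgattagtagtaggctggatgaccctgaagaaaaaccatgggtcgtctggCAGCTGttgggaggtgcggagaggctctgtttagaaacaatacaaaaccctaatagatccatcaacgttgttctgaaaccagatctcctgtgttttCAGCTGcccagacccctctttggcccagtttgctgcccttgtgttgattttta
Bcl2l1, outermost start, chr2:152831679-152831978, minus strand: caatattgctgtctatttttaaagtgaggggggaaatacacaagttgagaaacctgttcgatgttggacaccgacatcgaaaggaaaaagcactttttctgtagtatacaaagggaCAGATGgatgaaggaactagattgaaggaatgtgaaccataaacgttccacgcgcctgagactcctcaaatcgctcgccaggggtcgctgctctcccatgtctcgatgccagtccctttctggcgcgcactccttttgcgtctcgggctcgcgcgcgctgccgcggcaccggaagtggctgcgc
Bak1, chr17:27028578-27028877, minus strand: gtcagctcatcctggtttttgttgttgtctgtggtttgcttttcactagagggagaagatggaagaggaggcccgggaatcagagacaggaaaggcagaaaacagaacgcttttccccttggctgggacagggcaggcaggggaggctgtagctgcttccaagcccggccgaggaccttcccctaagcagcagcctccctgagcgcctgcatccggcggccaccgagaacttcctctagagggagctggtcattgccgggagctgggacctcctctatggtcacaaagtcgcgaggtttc
The outer Hax1 start and the Bak1 start held 0 matches to CANNTG, the inner Hax1 start held 2 matches to CAGCTG, and the outermost Bcl2l1 start held 1 CAGATG. The other Bcl2l1 starts held 1 CATGTG and 1 CACTTG. Counting for each gene the start nearest its GENCODE gene start, 4 of 8 members held CANNTG and 1 held CAGCTG, which was Bcl2l11, a gene that was not called. Among other genes that were not called, Bax held 2 matches to CACGTG and Mcl1 held 1 CACTTG. Bbc3, also not called, held 0 matches to CANNTG at the start counted. Its further starts held CACCTG with CAGGTG, and CACGTG with CAGGTG, while the further Bcl2l11 start held 0. Of 32851 promoters of the same length, 72.31% held CANNTG and 16.3% held CAGCTG. Promoters of 8 of the 9 genes were in the table, and the sequence of Pmaip1 was not used here. These are matches of letters and not sites of binding.

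Targeting Tfap4 changed 3 of the 9 genes. Hax1 fell 13.8-fold, while Bcl2l1 rose 1.86-fold and Bak1 rose 2.04-fold relative to siNeg, so that a pro-survival Bcl2 gene and an effector gene were both higher, and a further gene described as anti-apoptotic was lower. Only Hax1 was called, so that the count was 1, without siTfap4 replicate 1, without siNeg replicate 1 or without either siZic2 library. The other 6 (Mcl1, Bax, Bcl2l11, Bbc3, Pmaip1 and Casp2) did not pass the test. In the same comparison 2330 of the 14647 tested genes were called (15.9%), 621 higher (4.24%) and 1709 lower (11.7%), and 3 of the 9 genes and 32.4% of all tested genes had an unadjusted p below 0.05. The median log2 fold change was 0.09 over the 9 genes and 0.01 over all tested genes. Libraries did not overlap between siTfap4 and siNeg for 7 of the 9 genes, which was the case for 59.1% of all tested genes. All of this is RNA relative to all counts in bulk cultures, in which fewer cells of a type and less RNA per cell cannot be told apart. Adjusted p-values are those of the edgeR quasi-likelihood model, corrected by Benjamini-Hochberg across the 14647 genes, and a gene was called below 0.05.

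**Figure D1:**
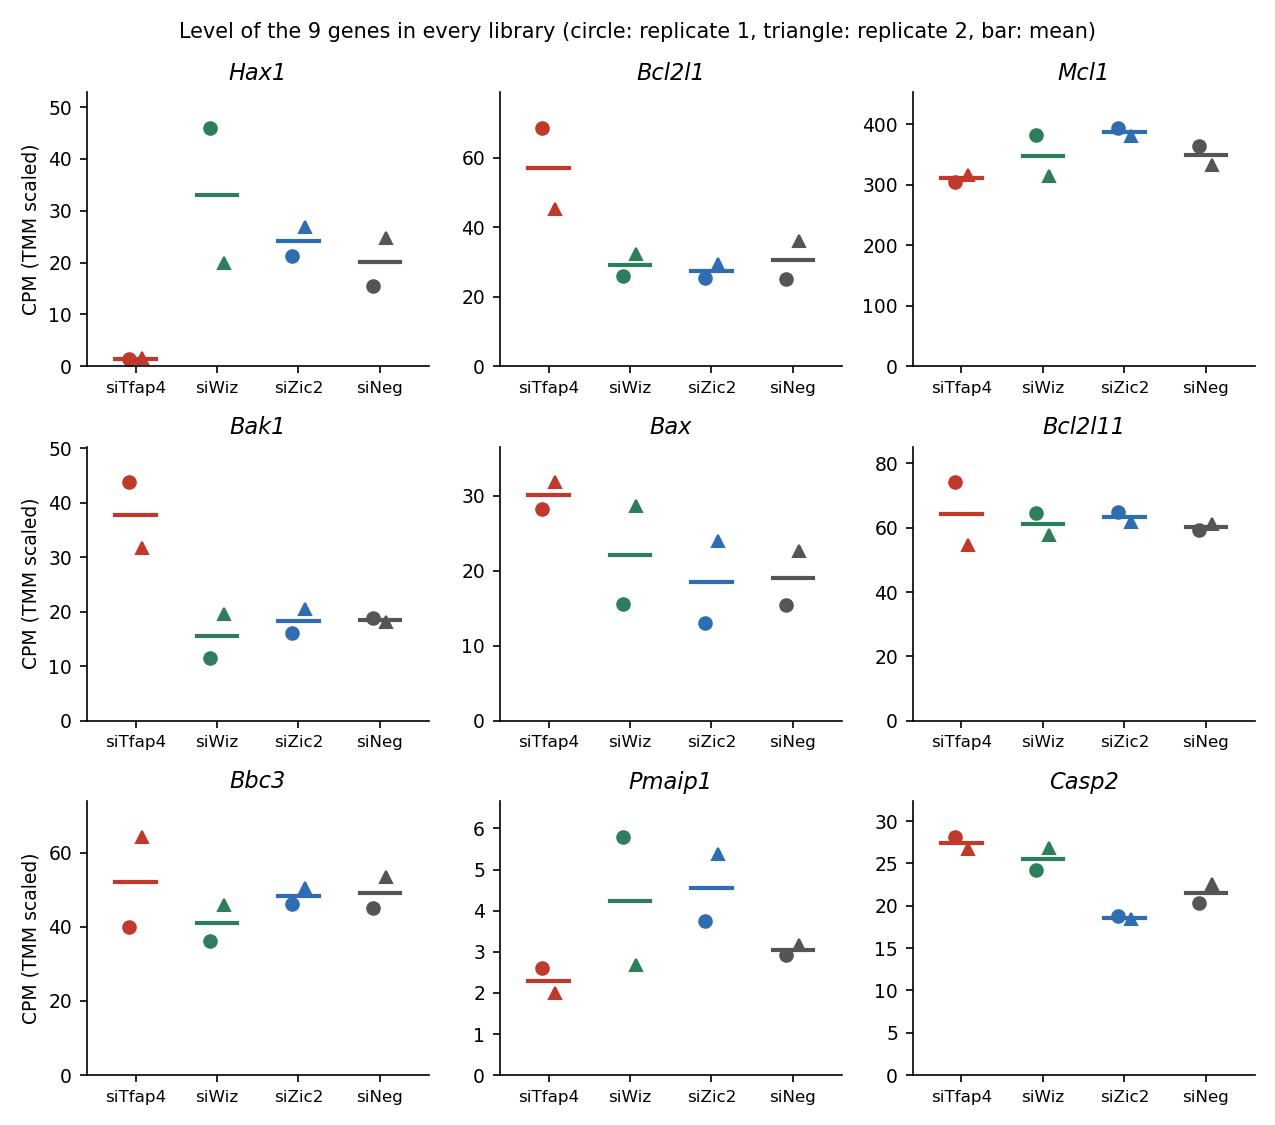
Level of each of the 9 genes in CPM (TMM scaled, linear axis from 0) in the 8 libraries by group, with a circle for replicate 1, a triangle for replicate 2 and a bar for the mean. Hax1 lay at 1.36 and 1.52 CPM in siTfap4 and at 15.5 CPM or more elsewhere, and Bcl2l1 and Bak1 were highest in both siTfap4 libraries.

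Hax1 (ENSMUSG00000027944, GRCm38 chr3:89995446-89998780, minus strand) encodes a mitochondrial protein that in mouse lymphocytes has been described as acting with the protease Parl in the processing of Htra2. It was at 1.36 and 1.52 CPM in the siTfap4 libraries, 46.0 and 19.96 CPM in siWiz, 21.3 and 26.8 CPM in siZic2, and 15.5 and 24.7 CPM in siNeg. Both siTfap4 libraries lay far below all 6 others, which overlapped among themselves. The log2 fold change of siTfap4 over siNeg was -3.78 (SE 0.46, 95% interval -4.78 to -2.79, adjusted p = 0.000436), at rank 42 of 14647 by p and rank 109 from the lowest fold change. The siTfap4 values rest on 11 and 13 counts, with exact Poisson 95% intervals of 0.681 to 2.44 and 0.812 to 2.61 CPM, against 186 and 257 counts in siNeg. These intervals allow for counting error at most, and their upper ends lie below the lowest of the other 6 libraries. With any single library left out, the log2 fold change stayed between -4.07 and -3.42 and the call held.

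The 3' end of Hax1 is partly repeated elsewhere in the genome. Of 681 distinct 50-base windows in the last 300 bases of its coding transcripts, 333 (48.9%) also occur in Gm14270, a processed pseudogene at chr2:170285035-170285880, and how reads that match both were counted was not given in the sources used here. Gm14270 had 0 and 0 counts in siTfap4, 5 and 2 counts in siWiz, 4 and 11 counts in siZic2, and 2 and 4 counts in siNeg. It was thus at 11 counts or fewer in every library, and Gm19710, which overlaps Hax1 on the other strand, was at 3 or fewer. Taken by the longest coding transcript, 28.7% of the Hax1 windows are shared. Windows were compared in this way for tested protein-coding genes above a minimum total count. Of these, 14% of the 265 genes with 25 to 50% shared windows were lower in siTfap4 than in siNeg, against 12.6% of the 10576 genes with none. The share lower was 14.8% for the 698 genes with up to 25% shared and 12.7% for the 877 genes with over 50%. It thus did not rise steadily with sharing. These percentages cover many genes together, and the part of shared windows in the Hax1 result was not tested.

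The 4 genes whose profile was most like that of Hax1 were Rps23, Morf4l2, Rpl34 and Psap, among 6448 tested genes with a mean of at least 20 CPM. The measure was the root mean square difference between log2 CPM profiles over the 8 libraries, each centred on its own mean: 0.26 for Rps23, 0.33 for Morf4l2, 0.44 for Rpl34 and 0.45 for Psap. Rps23, a protein of the small ribosomal subunit, averaged 60.7 CPM in siTfap4, 773 CPM in siWiz, 741 CPM in siZic2 and 576 CPM in siNeg. Morf4l2, a relative of the chromatin protein Morf4l1, averaged 9.20 CPM in siTfap4, 109 CPM in siWiz, 106 CPM in siZic2 and 91.7 CPM in siNeg. Rpl34, a protein of the large ribosomal subunit, averaged 29.9 CPM in siTfap4 and 214 in siNeg, and Psap, the precursor of the lysosomal saposins, averaged 4.39 CPM in siTfap4 and 55.3 in siNeg. That all 4 were low in siTfap4 follows from how they were chosen.

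Bcl2l1 (ENSMUSG00000007659, chr2:152780668-152831728, minus strand) encodes Bcl-xL, a pro-survival protein that holds Bax and Bak1 in check, and by alternative splicing the shorter Bcl-xS, which counts at the 3' end do not separate. It was at 68.6 and 45.1 CPM in siTfap4, 26.0 and 32.4 CPM in siWiz, 25.4 and 29.3 CPM in siZic2, and 25.2 and 36.1 CPM in siNeg. Both siTfap4 libraries lay above the other 6, which overlapped among themselves. The log2 fold change of siTfap4 over siNeg was 0.89 (SE 0.28, 95% interval 0.29 to 1.49, adjusted p = 0.0447). The call was lost without siTfap4 replicate 1 (log2 fold change 0.55, adjusted p = 0.337), siNeg replicate 1 (0.67, adjusted p = 0.255), siZic2 replicate 1 (adjusted p = 0.0693), siZic2 replicate 2 (adjusted p = 0.0686) or siWiz replicate 2 (adjusted p = 0.0519). It was also lost in a fit of siTfap4 and siNeg alone (adjusted p = 0.0860) and with library totals in place of TMM (adjusted p = 0.0524).

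Mcl1 (ENSMUSG00000038612, chr3:95658788-95663176, plus strand), whose short-lived pro-survival protein binds Bak1 and Bcl2l11, varied least between groups among the pro-survival genes. It was at 305 and 317 CPM in siTfap4, 382 and 315 CPM in siWiz, 395 and 382 CPM in siZic2, and 365 and 334 CPM in siNeg. The siTfap4 libraries lay below both siNeg libraries but overlapped with siWiz. The log2 fold change of siTfap4 over siNeg was -0.17 (SE 0.22, 95% interval -0.64 to 0.31, adjusted p = 0.633), which the correction for GC content and length moved to 0.0041. Changes within this interval were not excluded, so the test does not show that Mcl1 stayed the same.

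Bak1 (ENSMUSG00000057789, chr17:27019810-27029009, minus strand) encodes an effector that sits in the outer membrane and forms pores once activated. It was at 43.8 and 31.7 CPM in siTfap4, 11.4 and 19.7 CPM in siWiz, 16.1 and 20.4 CPM in siZic2, and 18.9 and 18.1 CPM in siNeg. Both siTfap4 libraries lay above the other 6, whose ranges overlapped. The log2 fold change of siTfap4 over siNeg was 1.03 (SE 0.30, 95% interval 0.39 to 1.67, adjusted p = 0.0337). It lost its call without siTfap4 replicate 1 (log2 fold change 0.77, adjusted p = 0.238), siNeg replicate 1 (adjusted p = 0.125) or siNeg replicate 2 (adjusted p = 0.102), and without either siZic2 library (adjusted p = 0.0505 each). Bak1 lies wholly within Ggnbp1 (ENSMUSG00000048731, chr17:27017987-27037624), which runs on the plus strand. Ggnbp1 had 232 and 130 counts in siTfap4, 106 and 98 counts in siWiz, 137 and 76 counts in siZic2, and 127 and 114 counts in siNeg, a log2 fold change of siTfap4 over siNeg of 1.03 (SE 0.31, adjusted p = 0.0408). It was called in 6 of 10 alternatives, and was 0.49 (adjusted p = 0.429) without siTfap4 replicate 1 and 0.50 (adjusted p = 0.232) with the correction for GC content and length. The library kit keeps strand, but the strand setting of the counting was not given in the sources used here, so reads of Bak1 and Ggnbp1 cannot be told apart with certainty.

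Bax (ENSMUSG00000003873, chr7:45461697-45466898, minus strand), the effector that moves from the cytosol to mitochondria, had levels of 28.3 and 31.8 CPM in siTfap4, 15.6 and 28.7 CPM in siWiz, 13.03 and 24.0 CPM in siZic2, and 15.4 and 22.6 CPM in siNeg. The siTfap4 libraries lay above siNeg and siZic2 but overlapped with siWiz. The log2 fold change of siTfap4 over siNeg was 0.66 (SE 0.35, 95% interval -0.09 to 1.41, adjusted p = 0.206) and did not pass the test. It was 0.29 when corrected for GC content and length. Replicate 2 was above replicate 1 in all 4 groups for Bax, by 0.17 to 0.88 on the log2 scale, and likewise for Bbc3, by 0.13 to 0.69.

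The BH3-only genes gave no call. Bcl2l11 (ENSMUSG00000027381, chr2:128126038-128162547, plus strand), which encodes Bim, an activator of Bax and Bak1, was at 74.1 and 54.5 CPM in siTfap4, 64.5 and 57.9 CPM in siWiz, 64.9 and 61.7 CPM in siZic2, and 59.4 and 61.3 CPM in siNeg. The siTfap4 libraries stood on either side of all the others, and the log2 fold change over siNeg was 0.09 (SE 0.23, 95% interval -0.40 to 0.58, adjusted p = 0.817). Its 4 group means had an SD of 0.037 on the log2 scale, against 1.97 for Hax1, 0.57 for Bak1 and 0.48 for Bcl2l1.

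Bbc3 (ENSMUSG00000002083, chr7:16308393-16318205, plus strand), which encodes the p53-inducible protein Puma, was at 39.8 and 64.2 CPM in siTfap4, 36.1 and 45.7 CPM in siWiz, 46.2 and 50.4 CPM in siZic2, and 44.97 and 53.4 CPM in siNeg. The siTfap4 pair spanned the siNeg pair, and the log2 fold change was 0.08 (SE 0.26, 95% interval -0.49 to 0.65, adjusted p = 0.860). Pmaip1 (ENSMUSG00000024521, chr18:66458533-66465565, plus strand), which encodes Noxa, an antagonist of Mcl1, was the least covered. It had 21 and 17 counts (2.604 and 1.99 CPM) in siTfap4, 65 and 28 counts (5.80 and 2.67 CPM) in siWiz, 54 and 50 counts (3.74 and 5.38 CPM) in siZic2, and 35 and 33 counts (2.91 and 3.17 CPM) in siNeg. The siTfap4 libraries were the lowest, with a log2 fold change over siNeg of -0.40 (SE 0.48, 95% interval -1.43 to 0.63, adjusted p = 0.594). Changes within that interval were not excluded at this depth.

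Casp2 (ENSMUSG00000029863, chr6:42264985-42282508, plus strand), an initiator caspase that is activated on the PIDDosome and can cleave Bid, was at 28.1 and 26.7 CPM in siTfap4, 24.2 and 26.8 CPM in siWiz, 18.8 and 18.4 CPM in siZic2, and 20.4 and 22.6 CPM in siNeg. Both siTfap4 libraries lay above siNeg and siZic2, and siWiz lay between and reached into siTfap4. The log2 fold change of siTfap4 over siNeg was 0.35 (SE 0.23, 95% interval -0.15 to 0.86, adjusted p = 0.317). Genes that overlap Casp2 (Gm25108) and Bax (Gm45808) on the same strand had 0 counts in all 8 libraries. Casp2 passed the threshold only with the correction for GC content and length, where it was 0.74 (adjusted p = 0.0313).

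**Figure D2:**
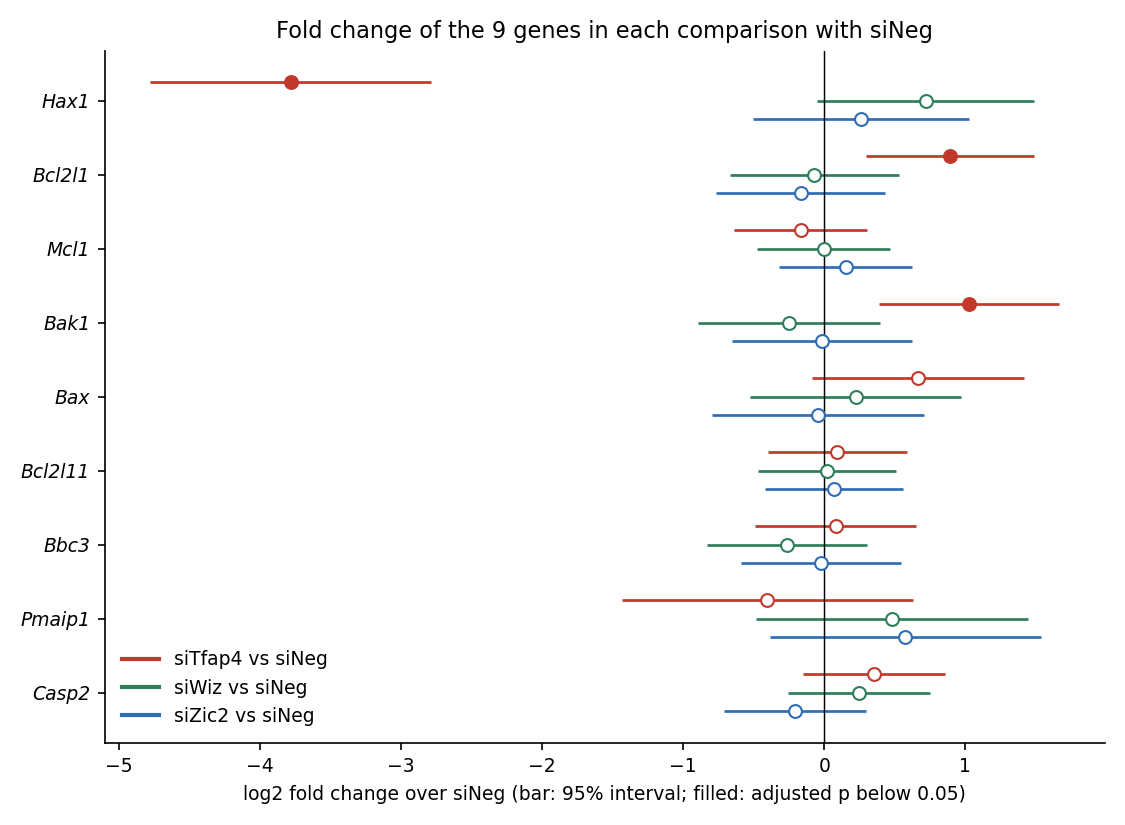
Log2 fold change over siNeg of the 9 genes for siTfap4, siWiz and siZic2, with 95% intervals and filled points where the adjusted p was below 0.05. Filled points are Hax1 at -3.78, Bcl2l1 at 0.89 and Bak1 at 1.03, all in siTfap4, and every siWiz and siZic2 interval crosses 0.

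Within a library, the ratio of a pro-survival gene to its antagonist was followed as a log2 difference, of which only the changes between libraries can be read, since capture of each transcript end is not known. Bcl2l1 over Bcl2l11 stood at -0.11 and -0.27 in the siTfap4 libraries, at -1.31 and -0.84 in siWiz, at -1.35 and -1.08 in siZic2, and at -1.24 and -0.76 in siNeg, so that both siTfap4 libraries were above the other 6. Mcl1 over Bak1 stood at 2.80 and 3.32 in the siTfap4 libraries, at 5.06 and 4.001 in siWiz, at 4.61 and 4.22 in siZic2, and at 4.27 and 4.21 in siNeg, with both siTfap4 libraries below the rest. Bcl2l1 over Bak1 stood at 0.65 and 0.51 in siTfap4 and 0.42 and 1.00 in siNeg, and here the groups overlapped. Bcl2l1 over Bax stood at 1.28 and 0.51 in siTfap4 and 0.71 and 0.68 in siNeg, which overlapped as well. These 4 ratios were not tested. They are made from the levels given above, so those with Bcl2l1 or Bak1 restate the differences of these genes and are not a further result.

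**Figure D3:**
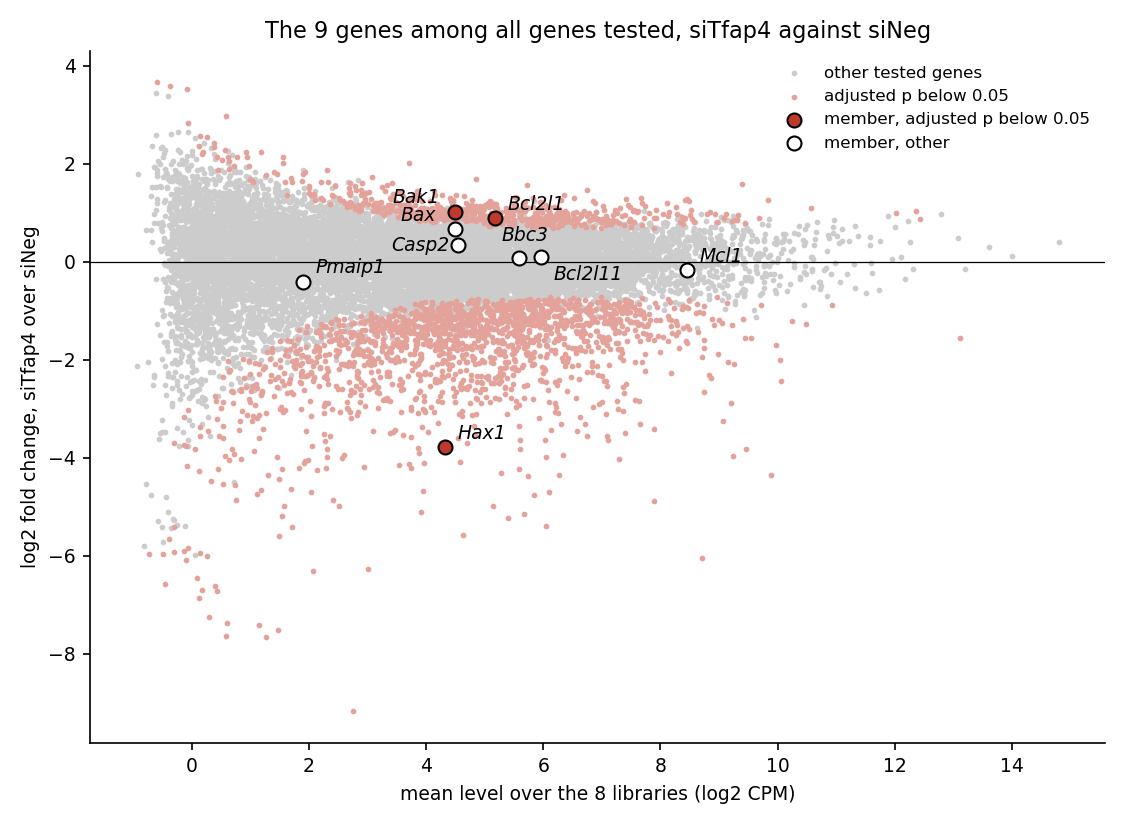
Log2 fold change of siTfap4 over siNeg against the mean log2 CPM over the 8 libraries for the 14647 tested genes (small dots, tinted where the adjusted p was below 0.05), with the 9 genes as large circles, filled where called. Hax1 at -3.78 lies among the strongly lowered genes, while Bcl2l1 at 0.89 and Bak1 at 1.03 lie at the inner edge of the called higher genes.

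Targeting Wiz changed none of the 9 genes detectably: 0 were called, as were 0 of the 14647 tested genes (0%), and at an unadjusted p below 0.05 the count was 0 of the 9 and 266 of all tested genes (1.82%). By DESeq2 1 gene was called, Wiz itself. The largest difference was in Hax1, at 46.0 and 19.96 CPM in siWiz and 15.5 and 24.7 CPM in siNeg, a log2 fold change of 0.72 (SE 0.36, 95% interval -0.05 to 1.49, unadjusted p = 0.0640). That value rests on siWiz replicate 1, without which it was -0.0016. Pmaip1 differed by 0.48 (95% interval -0.48 to 1.45), which was -0.18 without the same library. Libraries of siWiz and siNeg did not overlap for 1 of the 9 genes, Casp2 (log2 fold change 0.25, 95% interval -0.25 to 0.75), against 25.1% of all tested genes. The remaining 6 lay between -0.27 for Bbc3 and 0.22 for Bax.

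Targeting Zic2 likewise gave 0 calls among the 9 genes and 0 among all tested genes (0%), by edgeR and by DESeq2. At an unadjusted edgeR p below 0.05 the count was 0 of the 9 and 86 of all tested genes (0.587%). This share and the 1.82% in siWiz lie below the share of 0.05 that unchanged genes would give. The test was thus strict in both comparisons, and 0 calls do not show that the genes stayed the same. The widest differences were in Pmaip1, at 0.57 (95% interval -0.39 to 1.53), and Hax1, at 0.26 (95% interval -0.51 to 1.03). Casp2 was at 18.8 and 18.4 CPM in siZic2, below both siNeg libraries, with a log2 fold change of -0.21 (95% interval -0.71 to 0.30). Mcl1 was at 395 and 382 CPM, above both siNeg libraries, with a log2 fold change of 0.15 (95% interval -0.32 to 0.63). The libraries of the 2 groups did not overlap for 4 of the 9 genes (Mcl1, Bcl2l11, Pmaip1 and Casp2), against 23.8% of all tested genes. The intervals of Pmaip1 and Hax1 reach past the 0.89 seen for Bcl2l1 in siTfap4, and those of the other 7 genes do not.

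Set against the other siPOOLs in place of siNeg, siTfap4 gave calls for Hax1, Bcl2l1 and Bak1 as well. Against siWiz, 2 of the 9 genes were higher and 1 lower, where 15.1% of all tested genes were called (4.66% higher and 10.4% lower). The count at an unadjusted p below 0.05 was 3 of the 9 and 31.6% of all tested genes, and libraries did not overlap for 4 of the 9 and 61.7% of all. Hax1 had a log2 fold change of -4.50 (adjusted p = 0.000412), Bcl2l1 0.96 (adjusted p = 0.0347) and Bak1 1.28 (adjusted p = 0.0142). Against siZic2, 2 of the 9 genes were higher and 1 lower, where 23.1% of all tested genes were called (8.41% higher and 14.7% lower). The count at an unadjusted p below 0.05 was 4 of the 9 and 37.6% of all tested genes, and libraries did not overlap for 7 of the 9 and 66.8% of all. Hax1 had -4.04 (adjusted p = 0.000234), Bcl2l1 1.06 (adjusted p = 0.0168) and Bak1 1.05 (adjusted p = 0.0238). These comparisons share the siTfap4 libraries with the comparison against siNeg and are not independent of it. Without siTfap4 replicate 1 only Hax1 was called in each of them, with an adjusted p of 0.291 for Bcl2l1 and 0.126 for Bak1 against siWiz, and of 0.160 for Bcl2l1 and 0.173 for Bak1 against siZic2. The Bcl2l1 and Bak1 calls against siWiz were also lost without siWiz replicate 1 (adjusted p = 0.249 and 0.174), and those against siZic2 without siZic2 replicate 1 (adjusted p = 0.152 and 0.206) or replicate 2 (adjusted p = 0.0792 and 0.0787). Bcl2l1 against siWiz also lost its call without siWiz replicate 2 (adjusted p = 0.0611), without siZic2 replicate 1 (0.0566) or replicate 2 (0.0562), and in a fit of siTfap4 and siWiz alone (0.0562). Casp2 against siZic2 had a log2 fold change of 0.56 (unadjusted p = 0.0326, adjusted p = 0.0995), and with the correction for GC content and length 1.02 (adjusted p = 0.00583). Between siWiz and siZic2, 0 of the 9 genes and 0 of all tested genes were called (0%), with 0 of the 9 and 2.62% of all tested genes at an unadjusted p below 0.05, and no overlap of libraries for 2 of the 9 (Bbc3 and Casp2) and 35% of all. Casp2 came nearest there, with 24.2 and 26.8 CPM in siWiz against 18.8 and 18.4 CPM in siZic2 (log2 fold change 0.46, 95% interval -0.05 to 0.96, unadjusted p = 0.0733).

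**Figure D4:**
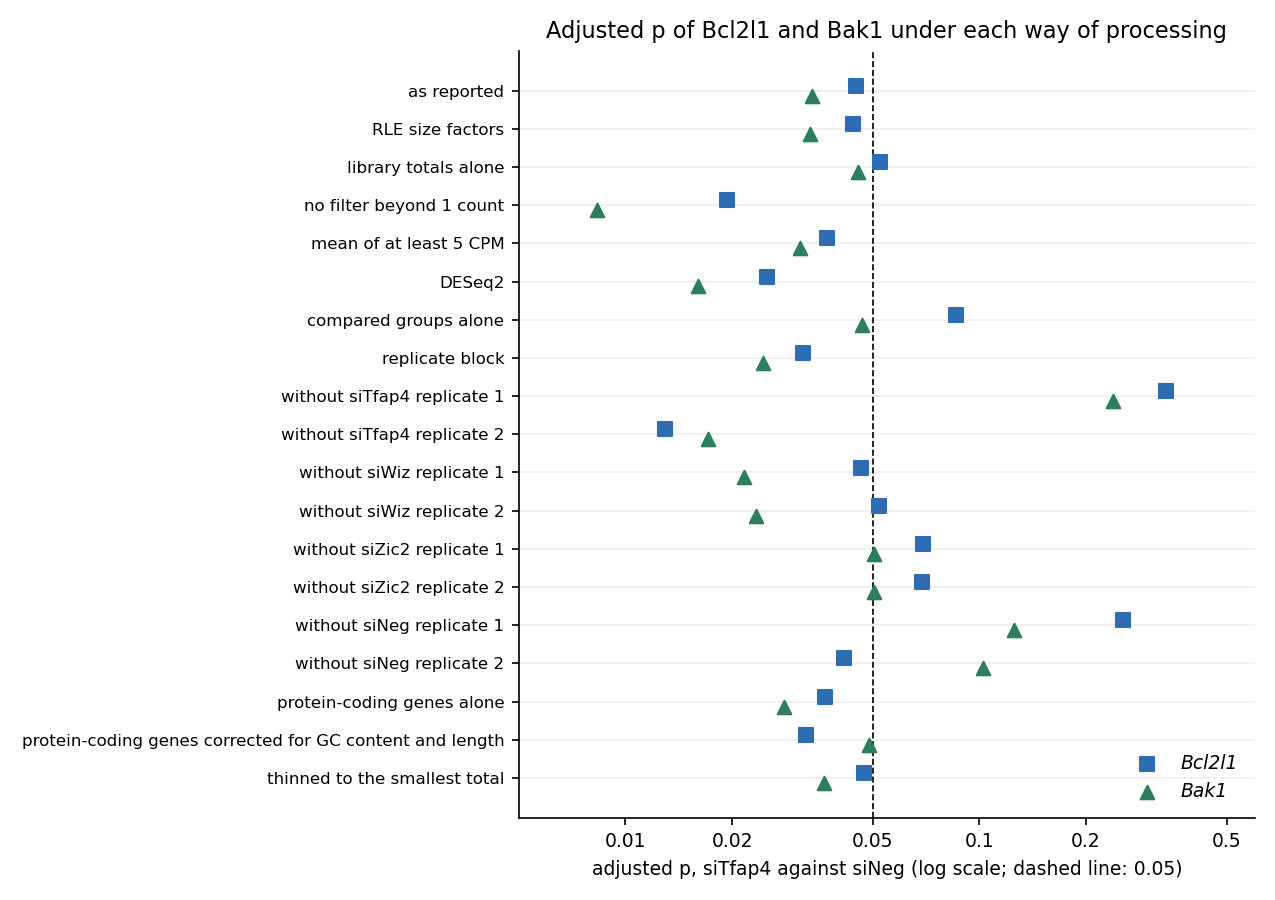
Adjusted p (log axis, dashed line at 0.05) of Bcl2l1 and Bak1 for siTfap4 against siNeg under each way of processing and with each library left out. Both lie at or just below 0.05 in most settings, and both lie well above it without siTfap4 replicate 1 (0.337 and 0.238) or siNeg replicate 1 (0.255 and 0.125).

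The rest of the pathway was described with 48 further genes, of which 43 were tested and 5 (Bcl2l10, Bcl2a1a, Bcl2a1b, Bcl2a1d and Fas) were too low to be tested. In siTfap4 against siNeg, 2 were higher, 4 were lower and 37 were not called, where 15.9% of all tested genes were called, with a median log2 fold change of 0.20 against 0.01 over all tested genes. The count of 6 calls fell without siTfap4 replicate 1 or siNeg replicate 1 and rose without siTfap4 replicate 2. It also rose with the replicate block and with the correction for GC content and length, as given below. Among other BH3-only genes, Bid, which links death receptors and Casp2 to mitochondria once cleaved, fell to 7.83 ± 3.36 CPM in siTfap4, against 40.7 ± 4.98 CPM in siNeg (log2 fold change -2.37, adjusted p = 0.00108). Bad, which antagonises Bcl2l1, was higher at 55.3 ± 0.483 CPM in siTfap4 and 24.1 ± 11.4 CPM in siNeg (1.203, adjusted p = 0.0300). Hrk, another antagonist of Bcl2l1, was higher at 67.2 ± 25.7 CPM in siTfap4 and 35.9 ± 0.390 CPM in siNeg (0.90, adjusted p = 0.0405). So this group of 5 moved in both directions: Bid lower, Bad and Hrk higher, and Bmf and Bik not called.

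Downstream of the membrane step, Apaf1, the scaffold of the apoptosome, was lower at 3.87 ± 0.835 CPM in siTfap4 and 13.8 ± 7.54 CPM in siNeg (log2 fold change -1.84, adjusted p = 0.0147). It was the only called gene among the 5 apoptosome and caspase genes. Vdac1, an outer membrane channel, was lower at 273 ± 88.6 CPM in siTfap4 and 652 ± 33.1 CPM in siNeg (-1.25, adjusted p = 0.00682), while Vdac2 and Vdac3 were not called. Tnfrsf10b, a death receptor for Trail, was lower at 15.2 ± 8.94 CPM in siTfap4 and 35.0 ± 0.520 CPM in siNeg (-1.19, adjusted p = 0.0278). All SDs are over 2 libraries. None was called among the 2 tested pro-survival relatives (Bcl2 and Bcl2l2), the effector relative Bok, the 5 released factors, the 4 inhibitors of apoptosis, the 2 PIDDosome genes, the 5 fission and fusion genes or the 3 genes of Mcl1 turnover. Parl, described with Hax1, was at 177 ± 2.98 CPM in siTfap4 and 154 ± 44.2 CPM in siNeg (0.20, adjusted p = 0.621), and Htra2 was at 6.40 ± 5.71 CPM in siTfap4 and 16.4 ± 5.20 CPM in siNeg (-1.35, adjusted p = 0.0645); both were named after their values were seen.

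Of these 6 calls, only that of Bid held with every library left out in turn (adjusted p at most 0.0120). With siTfap4 replicate 1 left out, adjusted p-values were 0.0653 for Vdac1, 0.0653 for Apaf1, 0.184 for Tnfrsf10b, 0.124 for Bad and 0.390 for Hrk. Without siNeg replicate 1 it was 0.170 for Apaf1, 0.107 for Tnfrsf10b, 0.208 for Bad and 0.157 for Hrk, and without siNeg replicate 2 it was 0.0571 for Tnfrsf10b and 0.105 for Hrk. Hrk also lost its call without siZic2 replicate 1 (0.0656) or replicate 2 (0.0648), with library totals in place of TMM (0.0578) and in a fit of siTfap4 and siNeg alone (0.0786). In siWiz against siNeg, 0 of the 43 genes were called, and the genes with the smallest p were Casp6, with a log2 fold change of 0.69 (95% interval 0.02 to 1.36), and Apaf1, with -0.77 (95% interval -1.63 to 0.10). In siZic2 against siNeg, 0 of 43 were called, and these were Casp6, with 0.65 (95% interval -0.02 to 1.32), and Bcl2, with 1.21 (95% interval -0.05 to 2.46).

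**Figure D5:**
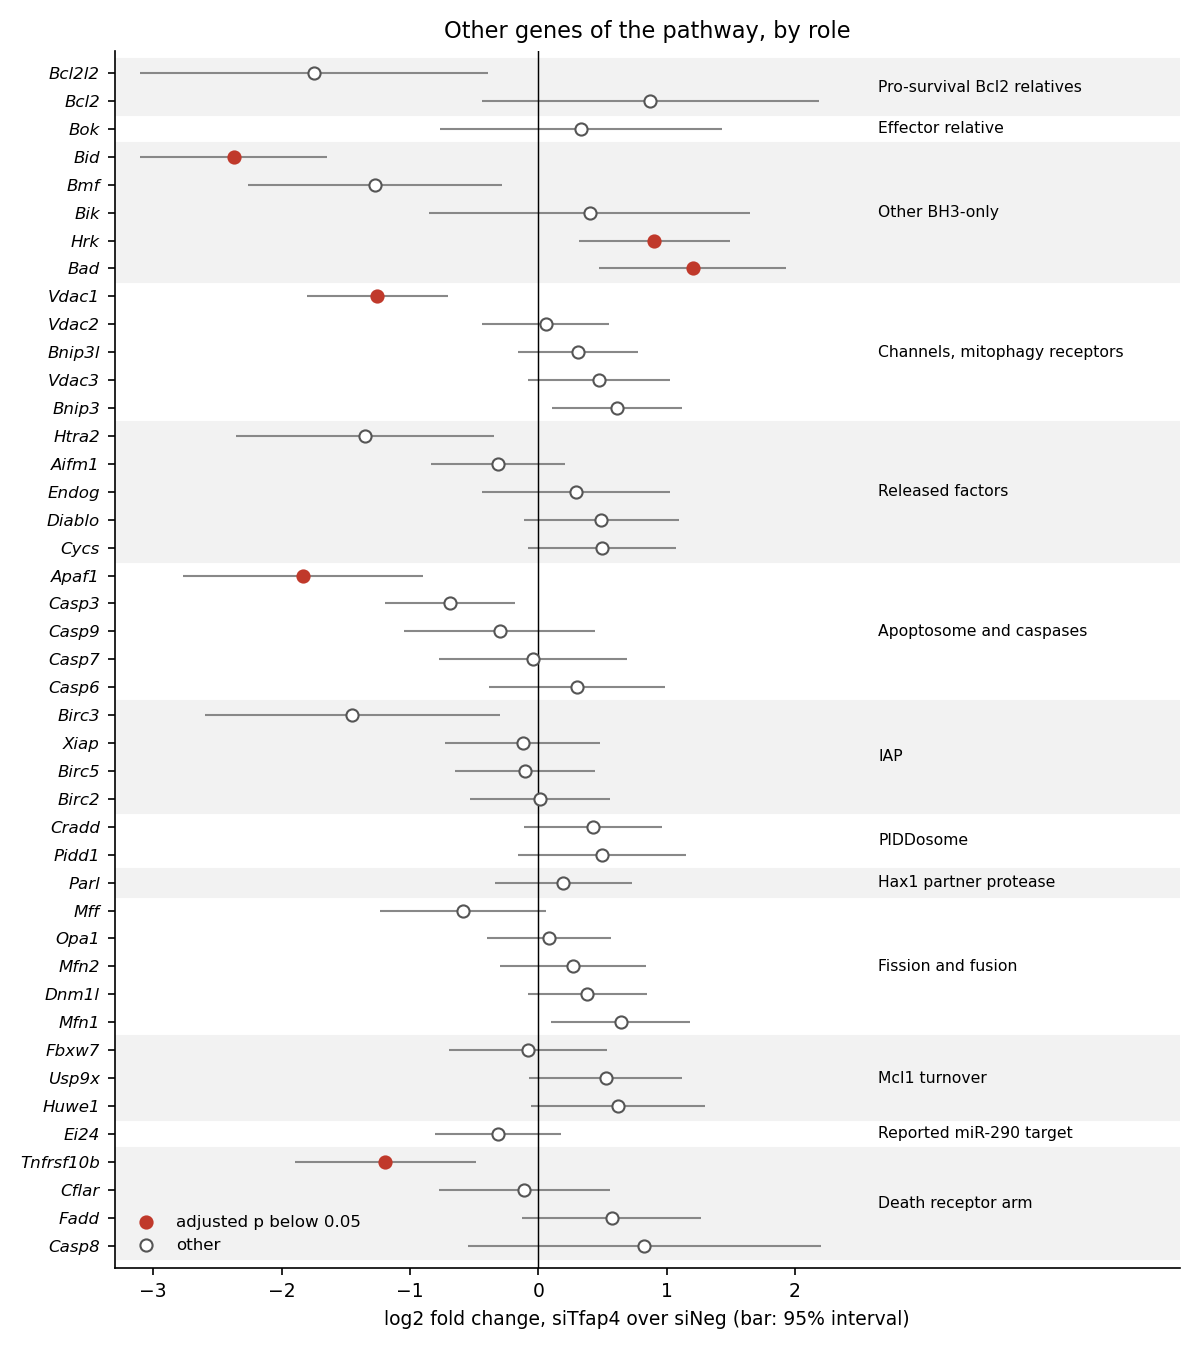
Log2 fold change of siTfap4 over siNeg with 95% intervals for the 43 further pathway genes, grouped by role, with filled points where the adjusted p was below 0.05. The 6 filled points are Bid, Apaf1, Vdac1 and Tnfrsf10b on the lower side and Bad and Hrk on the higher side.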

How the data were processed

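RNA was extracted with Trizol, and 500 ng went into QuantSeq 3' FWD libraries, which read transcript ends, per the labels' protocols. The authors deposited 1 table of raw counts, with a row for each Ensembl gene and a column for each of 8 libraries. Trim Galore and the build GRCm38 are named, without versions, per the submitters' processing notes. Which aligner and counting program were used, and how they treated strand and multi-mapping reads, is not given in the sources used here. All 8 columns were mapped by title. Of 55421 identifiers, 55154 were matched to a symbol in GENCODE M21.

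Genes were filtered with filterByExpr, scaled with TMM and fitted with edgeR 4.0.16 (R 4.3.3; glmQLFit, glmQLFTest) in 1 model of the 4 groups, without a replicate block, for 6 comparisons. The Benjamini-Hochberg threshold was 0.05 over all tested genes. The biological coefficient of variation was 22.2%. Log2 CPM used a prior count of 2. The duplicates of each group differed by 17.7 to 37.7 times the sampling noise (chi-square per degree of freedom), so they were kept as separate samples. P-values set a difference between groups against a spread estimated from the duplicates of all 4 groups. That spread also borrows from other genes, with 4 residual degrees of freedom and 9.7 from other genes. Counting intervals leave out the variation between cultures. They may be too narrow even for counting error, because PCR copies of 1 molecule may each be counted. The test was checked on simulated data.

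All 9 genes, the 3 targeted genes, up to 8 called genes of the pathway lists (or the 2 with the smallest p) and the 4 genes most like Hax1 were named by rule. The genes and lists, and the markers of stem cells and 5 other lineages, were chosen with earlier results of these data known. Alternatives were RLE factors, library totals, other filters, a 1.5-fold minimum, DESeq2 1.42.0, the compared groups alone, a replicate block and each library left out. Those added after seeing the data were protein-coding genes alone, a correction for transcript length and the GC content of its last 300 bases, thinning to the smallest total, and leaving out both siTfap4 libraries.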

Additional observations from a re-analysis of the deposited data

How the results depend on the processing

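Over the 27 fold changes of the 9 genes against siNeg, the alternatives and left-out libraries gave 454 values with the direction and side of the threshold kept, 12 that lost a call (Bcl2l1 and Bak1, given with those genes), 1 that gained a call (Casp2, corrected for GC content and length) and 34 of opposite sign. Hax1 in siTfap4 was called under all of them. The cause was not tested.

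Left-out libraries moved the called genes among the 9 between 1 and 3 in each comparison of siTfap4, with all called genes at 504 to 3322 against siNeg, 401 to 3279 against siWiz and 905 to 4057 against siZic2, and called pathway genes at 1 to 13. The lowest counts came without siTfap4 replicate 1. With GC content and length corrected, 16 pathway genes were called. The share of all tested genes called in that fit is not given here, so this count is not a result about the pathway. The compared groups alone gave 1411 genes for siTfap4 against siWiz. Without a filter, 12 genes were called for siWiz against siNeg and 23 for siWiz against siZic2, and DESeq2 called 1 for siWiz against siNeg. Wiz itself was called in siWiz without a filter (log2 fold change -1.40, adjusted p = 0.0118) and by DESeq2.

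Small fold changes that turned sign were those of Bak1 in siZic2 (0.019 without a filter, 0.035 corrected for GC content and length, 0.049 thinned), Bbc3 in siZic2 (0.011 without a filter, 0.015 corrected), Mcl1 in siWiz (0.0030 at a mean of at least 5 CPM), Mcl1 and Pmaip1 in siTfap4 (0.0041 and 0.056 corrected) and Bcl2l11 in siWiz (-0.0087 thinned). With libraries left out, ranges that crossed 0 in siTfap4 were -0.16 to 0.28 for Bcl2l11 and -0.32 to 0.38 for Bbc3. In siWiz they were -0.0016 to 1.197 for Hax1, -0.29 to 0.21 for Bcl2l1, -0.15 to 0.13 for Mcl1, -0.69 to 0.094 for Bak1, -0.28 to 0.60 for Bax, -0.058 to 0.094 for Bcl2l11 and -0.18 to 0.93 for Pmaip1. In siZic2 they were -0.0043 to 0.63 for Hax1, -0.37 to 0.11 for Bcl2l1, -0.18 to 0.18 for Bak1, -0.52 to 0.37 for Bax and -0.11 to 0.10 for Bbc3.

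The labels do not say that replicate numbers pair the libraries. The second principal component, with 14.4% of the variance, nevertheless split the libraries by replicate number. In the order siTfap4, siWiz, siZic2 and siNeg, replicate 1 stood at 26.9, 3.62, 24.3 and 31.0. Replicate 2 stood at -23.3, -35.2, -3.29 and -24.1. The cause of this split was not tested. The deviations of same-numbered libraries correlated between -0.043 and 0.33 over the 6 pairs of groups. With the replicate number as a block, 10 pathway genes were called in siTfap4 against siNeg, and the 9 genes still gave 3 calls. The share of all tested genes called with this block is not given here, so these counts are not a result about either set. The edgeR adjusted p with the block was 0.000841 for Hax1, 0.0317 for Bcl2l1 and 0.0244 for Bak1.

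Duplicates limit these tests to sizeable changes, Pmaip1 rests on 17 to 65 counts per library, and counts at transcript ends do not separate isoforms.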
